A study of Mus musculus with 8 samples.

Results

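The genes described here encode the transcription factors of the bZIP, Egr, Klf, Myc and NFAT families and the Ier genes in mouse cardiac endothelial cells (MCECs), compared between *Hdac3* knockout (KO) and empty vector (EV) cells. They were chosen by symbol: every protein-coding gene of the deposited table whose name starts with Fos, Jun, Atf1 to Atf7, Egr1 to Egr4, Klf and a digit, Cebp, Nfe2, Myc, Mxd, Batf, Creb and a digit, Ier2, Ier3, Ier5 or Nfat, or is Ddit3, Maf or Maf with a letter from a to k, Nfil3, Bach1, Bach2, Max, Mnt or Crem. This rule found 56 of the 8278 listed genes, of which 7976 are protein-coding. A 57th match, *Cebpd*, is typed as a pseudogene in the table and was left out. The prefixes also caught genes outside these families, namely *Atf7ip*, *Mycbp* and *Cebpz*, and the Ier genes are grouped with them as fast-response genes and not as a DNA-binding family. Of 94 protein-coding symbols of the annotation that fit the rule, 37 are outside the table and were not analysed here, among them *Egr3*, *Egr4*, *Klf2*, *Batf* and *Ier2*.

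MCECs are an established mouse line, and the study asked which genes change in them when *Hdac3* is knocked out. All cells were grown in DMEM with fetal bovine serum. The 4 *Hdac3* KO samples were from MCECs transduced with a lentivirus carrying *Hdac3* sgRNA in lentiCRISPR v2, kept as a stable line, and the 4 EV samples were from MCECs transduced with the empty vector. Whether the KO line is 1 clone or a pool is not given in the sources used here. The study's reporting summary describes its replicates in vitro as typically technical, without naming these libraries, so p-values measure the spread between these samples, which may be technical. Libraries held 15775327 to 22255684 reads, of which 84.3% to 85.9% fell on listed genes. *Hdac3* itself was at 1943, 2077, 2064 and 2147 normalized counts in EV and at 1558, 1465, 1496 and 1531 in KO libraries (log2 fold change -0.45, SE 0.035, adjusted p = 1.0e-13), and these counts do not read the edited site. Normalized counts are reads divided by the relative library size after TMM scaling. TMM takes most genes as unchanged, but the table holds only genes that differed in the authors' test. Its factors were 1.038 to 1.046 in EV and 0.957 to 0.962 in *Hdac3* KO libraries. The direction and call of small changes therefore depend on the scaling. Log2 fold changes are *Hdac3* KO against EV MCECs, and a gene was called at an adjusted p below 0.01, from the quasi-likelihood test of edgeR with p-values adjusted by Benjamini-Hochberg over all 8278 listed genes.

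Listed markers of the labelled cell type were at low levels apart from *Eng*. Of 14 endothelial markers 6 are listed, 5 lower and 1 higher (*Pecam1*, with a mean of 0.0080 FPKM in EV and 0.057 FPKM in *Hdac3* KO MCECs), and their summed level was 26.2 to 28.3 FPKM in EV and 20.9 to 22.4 FPKM in *Hdac3* KO libraries. *Cdh5*, *Tie1*, *Emcn*, *Vwf*, *Erg*, *Fli1*, *Cldn5* and *Esam* are outside the table, and their levels were not analysed here. Markers of other cells moved with the groups. All 3 listed endocardial markers of 5 fell (89.2 to 93.5 FPKM summed in EV, 58.7 to 61.5 FPKM in *Hdac3* KO libraries), as did the 3 of 7 for smooth muscle and pericytes (29.5 to 35.6 and 5.74 to 7.16 FPKM). Of 7 fibroblast markers 4 are listed, 3 lower and *Col1a1* higher (1450 to 1490 and 1110 to 1130 FPKM). *Myl7*, 1 of 9 cardiomyocyte markers, fell (4.83 to 6.54 and 1.55 to 1.84 FPKM), and *Cd68*, 1 of 5 immune markers, rose (5.36 to 5.89 and 11.1 to 12.5 FPKM). The part of these shifts in the members' changes was not tested.

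bZIP proteins bind DNA as pairs held together by a leucine zipper. Fos and Jun proteins pair to form AP-1, Atf4 directs genes of amino acid supply and with Ddit3 (CHOP) genes of the stress response, Nfe2l2 (NRF2) pairs with small Maf proteins at antioxidant genes, and Bach proteins compete at such sites. Egr and Klf proteins bind GC-rich DNA through zinc fingers, and Myc pairs with Max at E-boxes, where Mxd and Mnt proteins compete for Max. Many of these genes respond within minutes to serum, growth factors or stress, and Klf2 and Klf4 are known in endothelium for their response to blood flow. HDAC3 is a histone deacetylase that acts in repressor complexes.

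The members moved in both directions. Of the 56, 33 were called higher and 21 lower in *Hdac3* KO MCECs, and *Creb1* and *Junb* were not called. Over all listed genes 47.1% were called higher and 49.6% lower. The table was itself selected on the authors' adjusted p in the same contrast, so nothing is read from these shares. The median log2 fold change was 0.16 over the members and 0.06 over all listed genes. The median absolute log2 fold change was 0.53 over the members and 0.40 over all listed genes. Beyond a log2 fold change of 1, *Fosl1*, *Mycl*, *Ier5*, *Ddit3*, *Atf3*, *Creb5* and *Atf4* were higher (7 members, against 4.43% of all listed genes) and *Egr2*, *Klf12*, *Egr1*, *Bach2* and *Fos* were lower (5 members, against 8.36%). The normalized counts of the groups did not overlap for 51 members, against 91.1% of all listed genes, and they overlapped for *Creb5*, *Fosb*, *Jun*, *Nfatc3* and *Nfat5*. Among the 56, 13 had an absolute log2 fold change under 0.2. With library totals in place of TMM scaling, the estimates moved down (the median of all listed genes by -0.12) and 21 members were called higher and 21 lower. Under that scaling *Atf5*, *Creb1* and *Junb* changed sign.

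**Figure D1:**
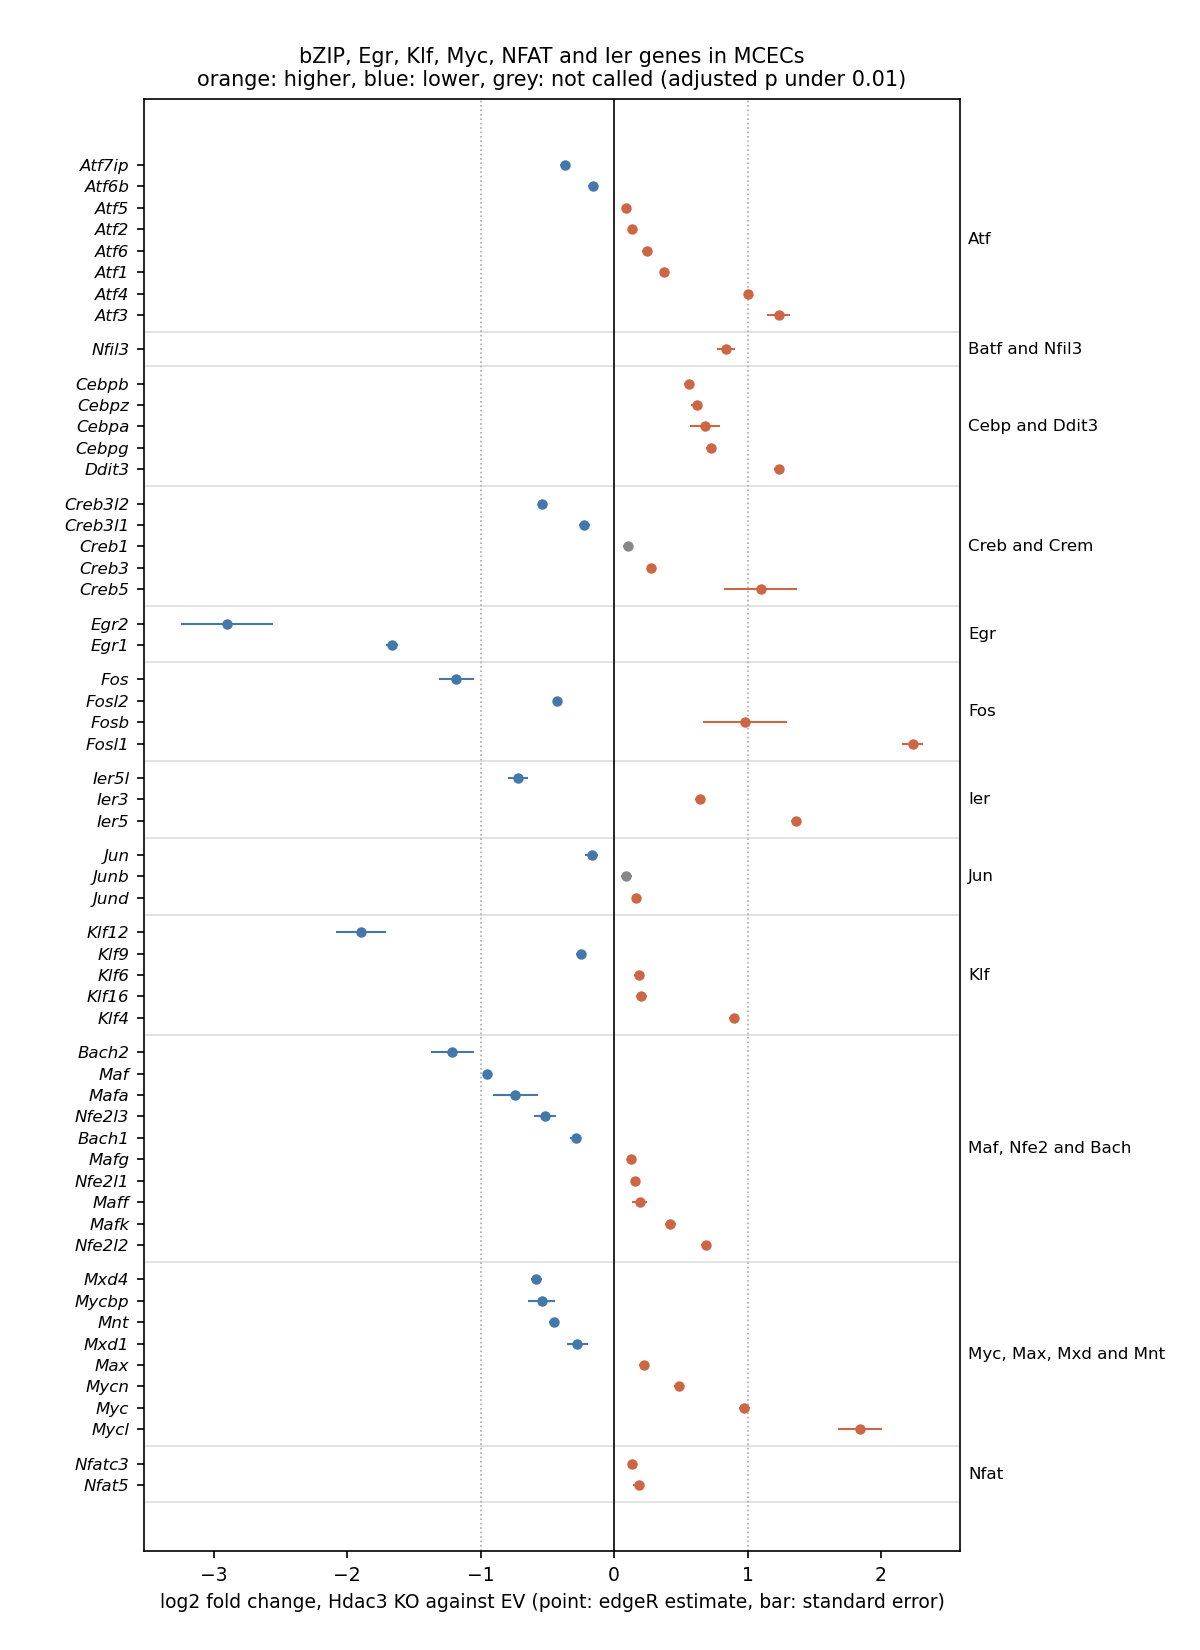
Log2 fold change of each of the 56 members in *Hdac3* KO against EV MCECs (x axis), grouped by family (y axis), with the standard error of the edgeR estimate as the bar and dotted lines at -1 and 1. *Egr2* is lowest at -2.90 and *Fosl1* is highest at 2.24, and the 5 Cebp and Ddit3 genes all lie above 0.

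The sequences before these genes' start sites were searched for the sites that the families themselves bind. A RefSeq promoter window (GRCm38.p6) running from 250 bases before to 50 bases after the start was found within 1000 bases of the table's start for 46 of the 56 members. Windows were not matched for *Fosl1*, *Creb3l1*, *Maf*, *Cebpz*, *Mafa*, *Myc*, *Egr1*, *Klf16*, *Atf6* and *Bach2*. Both strands were read, and a match is a description of the letters and not evidence of binding. The E-box CACGTG was in 12 of 46 members (26.1%), in 11.1% of 5683 windows of listed genes and in 7.15% of all 32851 windows. The Egr letters GCGNGGGCG were in 11 members (23.9%), 11.3% of listed genes and 5.55% of all windows. The AP-1 letters TGANTCA were in 3 members (*Ddit3*, *Klf9* and *Creb5*; 6.52%, 4.87% and 7.81%), the CRE letters TGACGTCA in *Maff* alone (2.17%, 3.52% and 1.79%), and the C/EBP-ATF letters TGATGNAA in *Atf3* and *Creb5* (4.35%, 2.11% and 3.97%). The core of the antioxidant response element, TGACNNNGC, which an AP-1 match followed by GC would also fill, was in 9 members (19.6%, 15.1% and 12.4%). No member window held the CArG box of serum response factor, which was in 1.14% of listed genes and 1.63% of all windows. Members had a median of 26.5 CpG dinucleotides per window and all listed genes with a window 22. The windows of a stress pair that rose (*Atf3*, chr1:191183284-191183583, - strand, and *Ddit3*, chr10:127290543-127290842, + strand), of the endothelial factor *Klf4* that rose (chr4:55532426-55532725, - strand) and of *Egr2*, which fell furthest (chr10:67535249-67535548, + strand), are shown 5′ to 3′, with matches in capitals.
Atf3: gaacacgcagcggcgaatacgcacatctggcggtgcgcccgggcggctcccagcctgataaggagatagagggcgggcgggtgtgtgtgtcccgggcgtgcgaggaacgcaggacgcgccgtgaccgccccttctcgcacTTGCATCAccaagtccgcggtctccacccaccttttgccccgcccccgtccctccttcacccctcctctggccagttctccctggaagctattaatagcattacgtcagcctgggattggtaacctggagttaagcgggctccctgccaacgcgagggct
Ddit3: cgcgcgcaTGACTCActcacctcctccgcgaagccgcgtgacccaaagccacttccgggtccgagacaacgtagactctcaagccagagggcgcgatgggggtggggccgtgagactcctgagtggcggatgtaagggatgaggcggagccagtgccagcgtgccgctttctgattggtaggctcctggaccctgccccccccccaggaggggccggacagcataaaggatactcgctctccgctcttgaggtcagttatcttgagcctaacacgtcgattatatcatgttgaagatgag
Klf4: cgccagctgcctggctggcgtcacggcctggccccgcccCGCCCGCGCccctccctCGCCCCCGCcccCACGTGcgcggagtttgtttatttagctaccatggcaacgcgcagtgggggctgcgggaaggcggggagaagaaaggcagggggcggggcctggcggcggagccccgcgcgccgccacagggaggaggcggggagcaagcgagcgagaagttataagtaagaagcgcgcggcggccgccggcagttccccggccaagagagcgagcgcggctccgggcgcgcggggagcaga
Egr2: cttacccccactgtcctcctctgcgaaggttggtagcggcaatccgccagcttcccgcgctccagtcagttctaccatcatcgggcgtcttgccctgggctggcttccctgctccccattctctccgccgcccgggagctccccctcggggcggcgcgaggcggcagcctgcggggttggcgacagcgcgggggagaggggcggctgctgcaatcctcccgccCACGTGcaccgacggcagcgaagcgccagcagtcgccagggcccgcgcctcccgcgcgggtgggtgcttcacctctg
The capitals mark a C/EBP-ATF match 110 bases before the start of *Atf3*, an AP-1 match 242 bases before that of *Ddit3*, 2 Egr matches (211 and 194 bases before) and an E-box (182 bases before) at *Klf4*, and an E-box 27 bases before the start of *Egr2*.

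Both listed Egr genes fell. *Egr1* encodes a zinc-finger factor induced by serum and growth factors (ENSMUSG00000038418, chr18:34859823-34864984, + strand, mm10). Its normalized counts were 1219, 1234, 1154 and 1238 in EV MCECs and 385, 389, 377 and 378 in *Hdac3* KO MCECs. Every KO library lay below every EV library, and the libraries of each group were close together. The means were 1211 ± 38.8 (SD, n = 4) in EV and 382 ± 5.83 (SD, n = 4) in *Hdac3* KO MCECs, and the change on the log2 scale was -1.66 (SE 0.047, adjusted p = 2.2e-26). *Egr2*, a related factor known from hindbrain, nerve and lymphocytes (ENSMUSG00000037868, chr10:67535475-67542188, + strand), was at 27.3, 36.6, 41.8 and 32.8 in EV and at 1.05, 9.15, 5.65 and 1.88 in *Hdac3* KO MCECs. The groups did not overlap, but the KO libraries held 1, 10, 6 and 2 reads, so 2 of them were within a floor of 3 reads and the fitted size is imprecise. Its log2 fold change was -2.90 (SE 0.35, adjusted p = 1.8e-09), and it ranged from -3.51 to -2.61 when single libraries were left out. In bulk RNA, fewer cells with a transcript and less of it per cell cannot be told apart.

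Other genes of the immediate early response did not follow the Egr genes as a group. Of 37 such genes outside the rule, 25 are listed, and 14 were called higher and 11 lower, the median log2 fold change being 0.10 beside 0.06 for all listed genes. The highest were *Plk2*, a kinase of the Polo family (1.59), and *Dusp4*, a phosphatase of MAP kinases (1.13). *Dusp4* was at 1972 ± 78.3 normalized counts (SD, n = 4) in EV and 4334 ± 79.5 (SD, n = 4) in *Hdac3* KO MCECs. The lowest were *Id3*, an inhibitor of basic helix-loop-helix factors (-0.58), and *Dusp5*, another MAP kinase phosphatase (-0.49).

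The Fos family changed its make-up. *Fosl1*, which encodes FRA1, rose more than any other member (ENSMUSG00000024912, chr19:5447703-5455945, + strand). It was at 119, 99.95, 123 and 126 normalized counts in EV and at 537, 555, 524 and 598 in *Hdac3* KO MCECs. The KO libraries all lay above the EV libraries. The fitted log2 difference was 2.24 (SE 0.078, adjusted p = 1.2e-23), a 4.71-fold rise. Of the exon bases of *Fosl1*, 57.2% are shared on the opposite strand with *Ccdc85b*, and no source says that reads were counted by strand. *Ccdc85b* was at 762 ± 47.4 normalized counts (SD, n = 4) in EV and 957 ± 53.2 (SD, n = 4) in *Hdac3* KO MCECs (0.32 on the log2 scale), and its part in the counts of *Fosl1* was not tested.

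*Fos*, the classic serum-induced member (ENSMUSG00000021250, chr12:85473890-85477273, + strand), was at 140, 128, 118 and 152 in EV and at 53.7, 57.6, 53.7 and 72.2 normalized counts in *Hdac3* KO MCECs. Each KO library was below each EV library. Its log2 fold change was -1.18 (SE 0.13, adjusted p = 3.7e-10). *Fosl2*, which encodes FRA2 and is the most abundant of the family, fell by less, from 3582 ± 105 to 2663 ± 26.8 normalized counts (SD, n = 4 each), with a log2 fold change of -0.43 (SE 0.029, adjusted p = 1.9e-15). *Fosb* was covered by only 8 to 30 reads per library. It was at 19, 11.1, 8.36 and 7.09 in EV and at 31.6, 19.2, 22.6 and 15 in *Hdac3* KO MCECs, so the groups overlapped. Its log2 fold change of 0.98 (SE 0.31, adjusted p = 0.00376) lost its call without EV replicate 3 (0.87), without EV replicate 4 (0.79) and without *Hdac3* KO replicate 1 (0.78), at adjusted p of 0.016, 0.025 and 0.025.

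Per transcript length, the summed level of the Fos family was 39.7 ± 0.71 FPKM (SD, n = 4) in EV and 39.9 ± 0.95 FPKM (SD, n = 4) in *Hdac3* KO MCECs. FPKM divides by the library total, and whether this sum changed depends on that scaling. Divided by the TMM factors that underlie the normalized counts, an alternative added after the data were seen, the sum was 38.2 ± 0.82 in EV and 41.5 ± 1.05 in *Hdac3* KO MCECs (SD, n = 4 each), which is 8.86% higher, and the groups no longer overlapped (37.3 to 39.1 and 40.5 to 43.0). Within the sum *Fosl2* made up 81.9% in EV and 56% in *Hdac3* KO MCECs, and its share ran from 80.7% to 83.8% and from 53.8% to 57.2%. The share of *Fosl1* was 9.18% (7.77% to 9.78%) in EV and 39.9% (38.8% to 41.6%) in *Hdac3* KO MCECs. *Fos* held 8.53% and 3.45%, and *Fosb* 0.409% and 0.727%. The shares are ratios within a library and do not depend on how libraries are scaled. The ranges of *Fosb* overlapped (0.247% to 0.694% and 0.475% to 1.04%), and those of the other Fos genes did not.

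**Figure D2:**
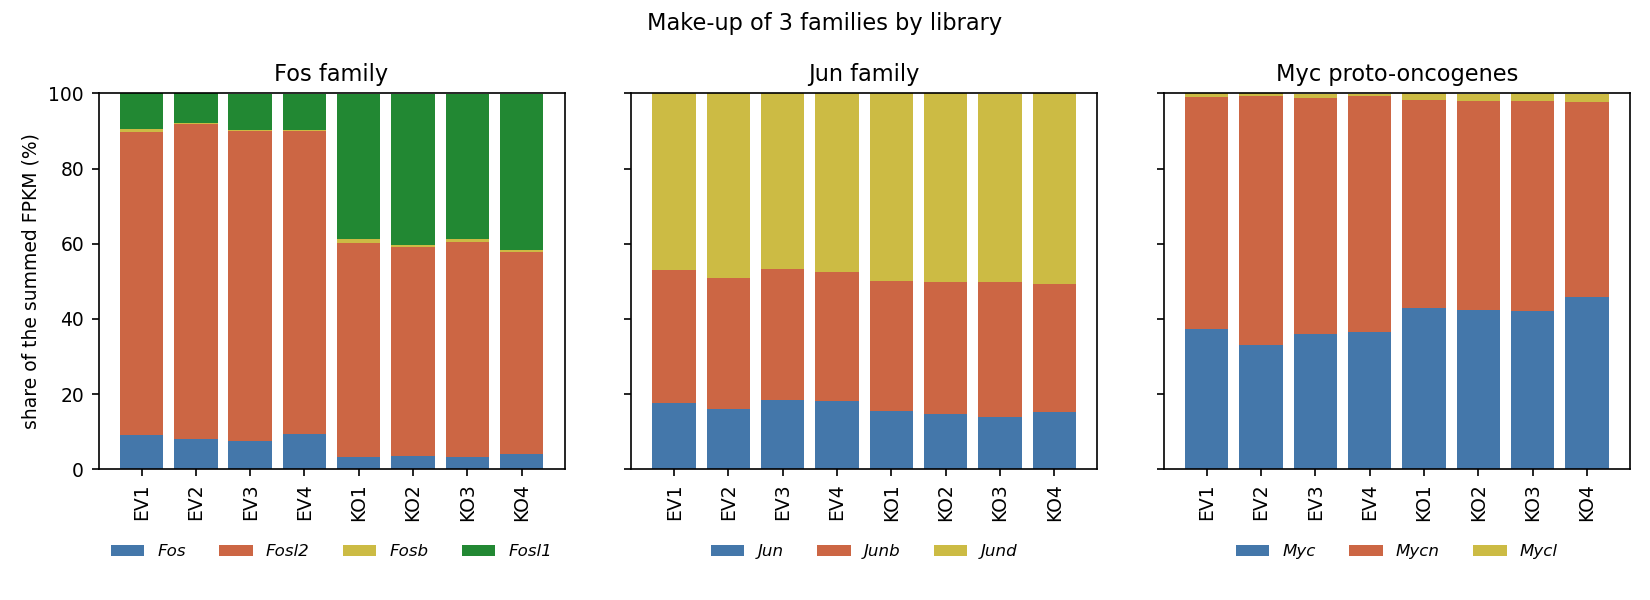
Share of each gene (y axis, percent of the summed FPKM) in each library (x axis) for the Fos family, the Jun family and the Myc proto-oncogenes. *Fosl1* takes 38.8% to 41.6% of the Fos family in the KO libraries against 7.77% to 9.78% in the EV libraries, while the Jun family shifts by a few percent.

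The Jun genes, the partners of Fos proteins, moved little. *Jun* (ENSMUSG00000052684, chr4:95049034-95052222, - strand) was at 811, 765, 873 and 878 in EV and at 787, 737, 689 and 757 normalized counts in *Hdac3* KO MCECs. The highest KO library exceeded the lowest EV library. On the log2 scale the difference was -0.17 (SE 0.05, adjusted p = 0.00205), with an exact permutation p of 0.0571, and the call was lost without EV replicate 3 (-0.15), without EV replicate 4 (-0.14) and without *Hdac3* KO replicate 3 (-0.13). *Jund*, the most abundant Jun gene (ENSMUSG00000071076, chr8:70697739-70700616, + strand), was at 1940, 2115, 2000 and 2078 in EV and at 2299, 2286, 2266 and 2272 in *Hdac3* KO MCECs. All KO libraries were above all EV libraries, by little. The log2 fold change of *Jund* was 0.16 (SE 0.032, adjusted p = 1.8e-05), and it was 0.05 and not called with library totals. More of its exon bases (52.6%) are shared with an opposite-strand gene, *Gm11175*, than not. *Junb* was at 953 ± 12.6 (SD, n = 4) in EV and 1016 ± 25.7 (SD, n = 4) in *Hdac3* KO MCECs and was not called (log2 fold change 0.09, adjusted p = 0.028). The summed level of the Jun genes was 79.0 ± 1.65 FPKM in EV and 77.4 ± 1.07 FPKM in *Hdac3* KO MCECs (SD, n = 4 each), and after division by the TMM factors it was 75.9 ± 1.82 and 80.6 ± 0.99, without overlap.

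Genes known as AP-1 targets were mostly higher. Of 26 on the list, 24 are in the table (median log2 fold change 0.80). Of these, 19 were called higher and 4 lower, against 47.1% and 49.6% of all listed genes, and *Axl* was not called. The lists of targets here and below were chosen with earlier results of these data known. *Areg*, a ligand of the EGF receptor, was among the highest (1.87). It was read by few counts, averaging 3.20 in EV against 11.9 in *Hdac3* KO MCECs. The lowest were the membrane matrix protease *Mmp14* (-0.81) and the protease inhibitor *Timp1* (-0.79). *Vim* was lower too (-0.32), at 1197 FPKM in EV and 885 FPKM in *Hdac3* KO MCECs. Summed over the listed targets, the level was lower in *Hdac3* KO libraries (1440 to 1510 FPKM) than in EV libraries (1680 to 1740 FPKM), although most single targets were higher. *Ccnd1* (1.0), which drives entry into the cell cycle, *Ptgs2* (1.41), an enzyme of prostaglandin synthesis, and *Cd44* (1.12), a hyaluronan receptor, were among the higher targets. They were picked after their values were seen. Of 18 kinases upstream of AP-1, 12 are listed, 6 called higher and 6 lower, from *Map3k5* (-0.64) and *Mapk3* (-0.47) to *Map2k3* (0.37) and *Map2k1* (0.40).

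*Atf4* was the most abundant member per length and it rose (ENSMUSG00000042406, chr15:80255184-80257540, + strand). Its level was 159.6 FPKM in EV and 295 FPKM in *Hdac3* KO MCECs. Its normalized counts were 5114, 5117, 5211 and 5240 in EV and 1.026e+04, 1.041e+04, 10458 and 10305 in *Hdac3* KO MCECs. The KO libraries all lay far above the EV libraries and were close together. The log2 fold change was 1.0 (SE 0.025, adjusted p = 9.4e-28), a 2.0-fold rise, and 0.88 with library totals. *Atf3*, an early stress-induced repressor that pairs with other bZIP proteins (ENSMUSG00000026628, chr1:191170296-191183340, - strand), was at 119, 128, 131 and 122 in EV and at 310.4, 295, 282 and 288 in *Hdac3* KO MCECs. The lowest KO library lay well above the highest EV library. The fitted log2 difference was 1.23 (SE 0.084, adjusted p = 2.1e-15).

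The other Atf genes moved less. *Atf1* (0.38), a partner of CREB for which the annotation also holds a processed pseudogene, *Atf6* (0.25), a sensor of unfolded protein, and *Atf2* (0.14), a partner of Jun, were called higher, but *Atf2* was not called with library totals (0.02). *Atf5* (0.09) lost its call without EV replicate 1 (0.08, adjusted p = 0.011) and without *Hdac3* KO replicate 1 (0.08, adjusted p = 0.012). *Atf6b* (-0.16) was called lower. The lowest of the group was *Atf7ip*, which encodes a chromatin protein that binds ATF7 (ENSMUSG00000030213, chr6:136518802-136611038, + strand). It was at 1489, 1580, 1467 and 1531 normalized counts in EV and at 1146, 1221, 1151 and 1181 in *Hdac3* KO MCECs. The groups did not overlap, and the log2 fold change was -0.37 (SE 0.037, adjusted p = 5.5e-11).

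All 5 Cebp and Ddit3 genes were called higher. *Ddit3*, which encodes CHOP, a partner of C/EBP proteins (ENSMUSG00000025408, chr10:127290774-127296288, + strand), was at 884, 809.6, 855 and 890.4 in EV and at 1988, 2002, 2118 and 1989 normalized counts in *Hdac3* KO MCECs. The groups stood far apart. On the log2 scale the difference was 1.23 (SE 0.038, adjusted p = 4.6e-25). Its exons share 6.13% of their bases with a further annotated gene of the same symbol on the same strand and 4.73% with *Mars* and *Gm4189* on the opposite strand. *Cebpb*, the most abundant of the C/EBP genes, rose least (ENSMUSG00000056501, chr2:167688915-167690418, + strand). It was at 1913, 2071, 2118 and 2204 in EV and at 3002, 3174, 2987 and 3112 in *Hdac3* KO MCECs. Every KO library was above every EV library, and the log2 fold change was 0.56 (SE 0.035, adjusted p = 1.8e-16). *Cebpg*, a partner of Atf4, rose by 0.73 (SE 0.035, adjusted p = 1.8e-19). *Cebpa*, a differentiation factor, was at 91 ± 10.6 (SD, n = 4) in EV and 146 ± 10.9 (SD, n = 4) in *Hdac3* KO MCECs, and the change on the log2 scale was 0.68 (SE 0.11, adjusted p = 1.3e-06). *Cebpz*, which is not a bZIP gene, was higher as well (0.62).

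Genes that ATF4 and CHOP are known to activate rose with them. All 28 listed genes of a list of 30 were called higher, under each alternative that was run, and their median log2 fold change was 1.02. Among all listed genes 47.1% were called higher, and the median log2 fold change was 0.06. The highest were *Cth*, which makes cysteine (2.35), and *Ero1l*, an oxidase of the endoplasmic reticulum (2.09). *Cth* was at 66.7 ± 14 normalized counts (SD, n = 4) in EV and 343 ± 3.12 (SD, n = 4) in *Hdac3* KO MCECs. *Ero1l* was at 945 ± 41.4 normalized counts (SD, n = 4) in EV and 4012 ± 54.9 (SD, n = 4) in *Hdac3* KO MCECs. The lowest were *Nupr1* (0.34), a stress-induced nuclear protein, and *Herpud1* (0.56), a protein of endoplasmic reticulum quality control. A list of eIF2 alpha kinases, unfolded protein sensors and related genes did not move one way, and not all of its genes act upstream of *Atf4*. Of its 11 genes, 10 are listed, 5 lower and 5 higher, with a median of -0.04. The eIF2 alpha kinases *Eif2ak2* (-0.55) and *Eif2ak4* (-0.36) were lowest, and *Ern1* (0.63), the sensor IRE1, and *Eif2s1* (0.51), eIF2 alpha itself, were highest. Of the other eIF2 alpha kinases, *Eif2ak3* was lower (-0.21) and *Eif2ak1* higher (0.12). With library totals 3 of the 10 were called higher.

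**Figure D3:**
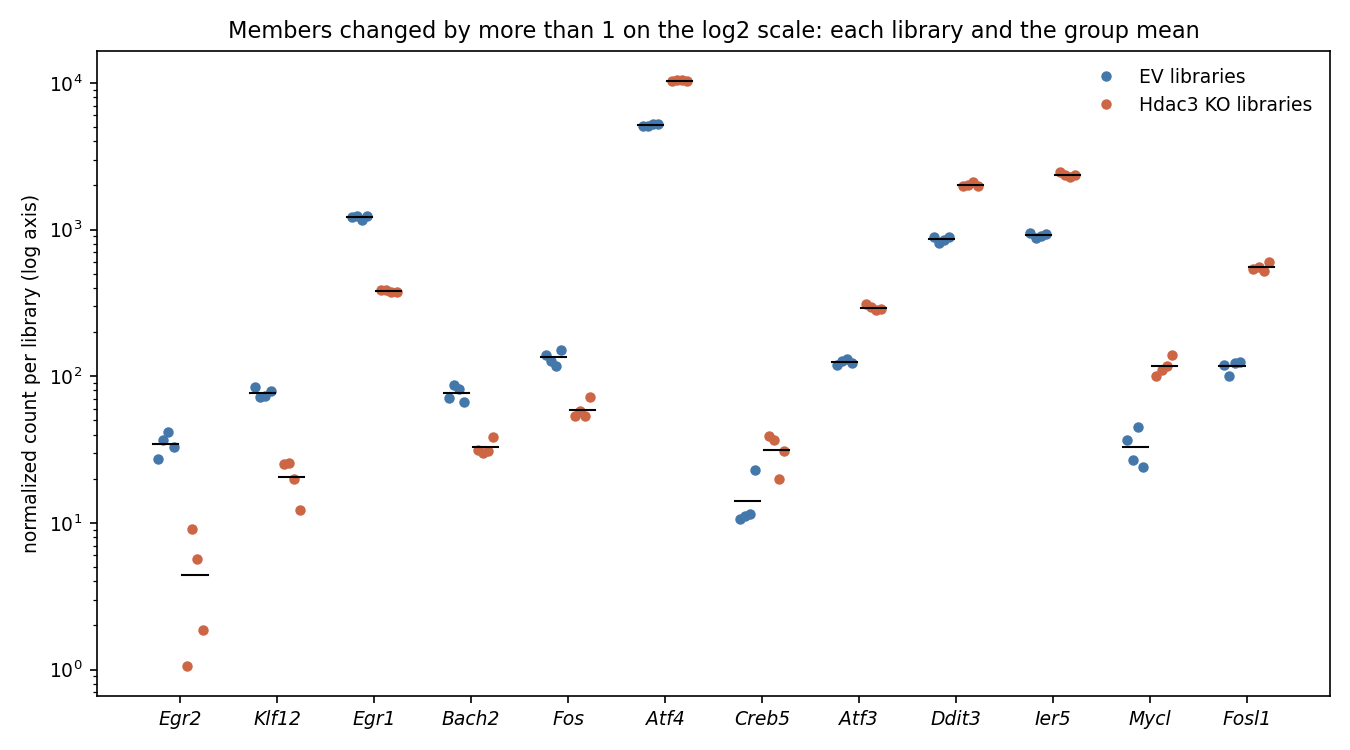
Normalized counts (y axis, log scale) of the 12 members changed by more than 1 on the log2 scale, in each EV and *Hdac3* KO library, with a bar at each group mean. The groups overlap for *Creb5* alone, and *Egr2* has a KO library at 1.05 and another at 1.88 normalized counts.

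Creb genes went both ways. *Creb5*, a relative of Atf2 (ENSMUSG00000053007, chr6:53573384-53696007, + strand), was at 10.7, 11.1, 11.5 and 23.1 in EV and at 38.9, 36.6, 19.8 and 30.9 normalized counts in *Hdac3* KO MCECs. EV replicate 4 was above *Hdac3* KO replicate 3, and the other EV libraries were below all KO libraries. The log2 fold change was 1.10 (SE 0.27, adjusted p = 3.7e-04), with an exact permutation p of 0.0571, and it was 1.49 without EV replicate 4. *Creb3l2*, a membrane-bound factor that supports secretion of matrix (ENSMUSG00000038648, chr6:37327255-37442146, - strand), was at 3296, 3518, 3333 and 3352 in EV and at 2203, 2432, 2305 and 2344 in *Hdac3* KO MCECs. All KO libraries lay below all EV libraries, and the log2 fold change was -0.54 (SE 0.032, adjusted p = 4.4e-17). Its relative *Creb3l1* was lower (-0.22) and *Creb3* higher (0.28), and 20.8% of the exon bases of *Creb3* are shared with opposite-strand genes. *Creb1*, the factor of the cAMP response, was at 1156 ± 37 (SD, n = 4) in EV and 1242 ± 26.4 (SD, n = 4) in *Hdac3* KO MCECs and was not called (adjusted p = 0.0105). It was called without EV replicate 2, without *Hdac3* KO replicate 3 and without *Hdac3* KO replicate 4, at adjusted p of 0.0043, 0.0098 and 0.0071. Among 17 CREB coactivators and genes of protein kinase A signalling, 11 are listed, 8 lower and 3 higher, with a median of -0.25. They ran from *Pde4d* (-1.26) and *Camk4* (-0.69) to *Crebbp* (0.22) and *Prkar2a* (0.66), and 1 was called higher with library totals.

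In the Maf, Nfe2 and Bach group, 5 genes rose and 5 fell. *Nfe2l2*, which encodes NRF2, rose most (ENSMUSG00000015839, chr2:75675513-75704641, - strand). It was at 2036, 2119, 2199 and 2122 in EV and at 3472, 3264, 3450 and 3461 normalized counts in *Hdac3* KO MCECs. The groups did not overlap, and the log2 fold change was 0.69 (SE 0.031, adjusted p = 2.7e-20). The small Maf genes, which encode its partners, rose by less, with *Mafk* at 0.42, *Maff* at 0.19 and *Mafg* at 0.13, and *Nfe2l1* was at 0.16. With library totals *Mafk* was called and *Maff* (0.07), *Mafg* (0.01) and *Nfe2l1* (0.04) were not.

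The Bach repressors and the large Maf genes fell. *Bach2*, known for its part in lymphocytes (ENSMUSG00000040270, chr4:32238804-32586108, + strand), was at 71.2, 86.6, 81.5 and 66.5 in EV and at 31.6, 30.2, 31.1 and 38.4 normalized counts in *Hdac3* KO MCECs. All KO libraries were lower than all EV libraries. The fitted log2 difference was -1.21 (SE 0.16, adjusted p = 2.9e-08). *Bach1*, a repressor of antioxidant genes, was at 1220 ± 35.6 (SD, n = 4) in EV and 999.5 ± 57.8 (SD, n = 4) in *Hdac3* KO MCECs, and the change on the log2 scale was -0.29 (SE 0.042, adjusted p = 1.7e-07). Of the large Maf genes, *Maf* was the most abundant, at 36.2 FPKM in EV and 17.2 FPKM in *Hdac3* KO MCECs, and its normalized counts fell from 4328 ± 126 to 2235 ± 19.6 (SD, n = 4 each; log2 fold change -0.95, SE 0.029, adjusted p = 2.9e-25). *Mafa*, known from pancreatic beta cells, was at 55.9 ± 2.52 (SD, n = 4) in EV and 33.7 ± 4.74 (SD, n = 4) in *Hdac3* KO MCECs (-0.74). *Nfe2l3* was lower too (-0.52).

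Genes of the antioxidant response were higher without exception. Of 19 on the list, 17 are in the table, and all 17 were called higher under each alternative run (median log2 fold change 0.73). The share called higher over all listed genes was 47.1%. The highest were *Nqo1*, a quinone reductase (1.68), and *Osgin1*, an oxidative stress protein (1.54). *Nqo1* was at 73 ± 15.4 normalized counts (SD, n = 4) in EV and 229.7 ± 14.1 (SD, n = 4) in *Hdac3* KO MCECs. *Osgin1* was at 240.1 ± 22.9 normalized counts (SD, n = 4) in EV and 701 ± 42.5 (SD, n = 4) in *Hdac3* KO MCECs. The smallest changes were those of *Gsr*, glutathione reductase (0.29), and *Cul3*, a ubiquitin ligase scaffold that acts on NRF2 (0.30). *Keap1*, the adaptor that marks NRF2 for degradation, is outside the table and was not analysed here. Another list held 12 bZIP and related genes outside the rule, and its *Tsc22d1*, *Tsc22d3* and *Nrf1* are not typical bZIP genes. Of these 12 genes, 10 are listed, 7 lower and 3 higher, with a median of -0.30. They ran from *Crebrf* (-0.90) and the circadian factor *Dbp* (-0.75) to *Crebzf* (0.50) and the AP-1 repressor *Jdp2* (0.69).

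Among the Klf genes, *Klf4* rose and *Klf12* fell. *Klf4*, a flow-responsive factor of endothelium (ENSMUSG00000003032, chr4:55527143-55532466, - strand), was at 1360, 1378, 1357 and 1377 in EV and at 2533, 2610, 2498 and 2547 normalized counts in *Hdac3* KO MCECs. The groups were far apart and the libraries of each group were close to each other. The log2 fold change was 0.90 (SE 0.032, adjusted p = 2.5e-23). *Klf12*, a repressor (ENSMUSG00000072294, chr14:99874486-100149764, - strand), was at 84.3, 72.2, 73.1 and 78.9 in EV and at 25.3, 25.6, 19.8 and 12.2 in *Hdac3* KO MCECs. Its KO libraries held 13 to 28 reads and all lay below the EV libraries. On the log2 scale the difference was -1.90 (SE 0.19, adjusted p = 3.7e-11). *Klf9*, a glucocorticoid-responsive factor, was lower (-0.25), and *Klf6* (0.18) and *Klf16* (0.20) were higher, and neither was called with library totals (0.07 and 0.09).

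The wider Klf2 and Klf4 pathway of endothelium was split. Of 25 genes 12 are listed, 7 lower and 5 higher, with a median of -0.14. The lowest were *Tek*, the angiopoietin receptor (-1.41), and *Mef2c*, an activator of *Klf2* (-1.04). The highest were *Adamts4*, a matrix protease (1.01), and *Heg1*, a junction protein (0.54). The count of higher genes was 3 without EV replicate 2 or without *Hdac3* KO replicate 3, and 2 with library totals. Of 12 other genes related to Egr and Klf proteins, 5 are listed, 2 lower (*Sp4* -0.69 and *Wt1* -0.20) and 3 higher (among them *Nab1* 0.13, a corepressor of Egr1, and *Zfp148* 0.15), and 0 were called higher with library totals.

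The Myc genes and Max rose while *Mxd4*, *Mnt* and *Mxd1* fell. *Mycl* (ENSMUSG00000028654, chr4:122995652-123002485, + strand) was at 36.8, 26.7, 44.9 and 23.9 in EV and at 101, 109.8, 118 and 141 normalized counts in *Hdac3* KO MCECs. All KO libraries lay above all EV libraries, at a low level. The log2 fold change was 1.84 (SE 0.17, adjusted p = 3.1e-12). *Myc*, which drives growth and ribosome production, was at 902, 814, 870.3 and 918 in EV and at 1721, 1655, 1668 and 1855 in *Hdac3* KO MCECs. The lowest KO library was well above the highest EV library. The log2 fold change of *Myc* was 0.98 (SE 0.043, adjusted p = 7.9e-21). *Mycn*, the most abundant of the family per length, was at 1737 ± 69.5 (SD, n = 4) in EV and 2430 ± 72.1 (SD, n = 4) in *Hdac3* KO MCECs, and the change on the log2 scale was 0.48 (SE 0.034, adjusted p = 4.7e-15). *Max* had a log2 fold change of 0.22, which was 0.10 and not called with library totals.

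Of the Max partners that oppose Myc, *Mxd4* fell most (ENSMUSG00000037235, chr5:34173887-34187720, - strand). It was at 1345, 1285, 1376 and 1414 in EV and at 889, 939, 921 and 875 normalized counts in *Hdac3* KO MCECs. The groups did not overlap, and the log2 fold change was -0.58 (SE 0.04, adjusted p = 3.6e-15). *Mnt* was at 1326 ± 42 (SD, n = 4) in EV and 969.8 ± 37.9 (SD, n = 4) in *Hdac3* KO MCECs (log2 fold change -0.45, SE 0.04, adjusted p = 2.3e-12). *Mxd1* was at 246 ± 5.98 (SD, n = 4) in EV and 204 ± 14.5 (SD, n = 4) in *Hdac3* KO MCECs (log2 fold change -0.27, SE 0.079, adjusted p = 0.00165), and its call was lost without *Hdac3* KO replicate 3 (-0.23, adjusted p = 0.010). *Mycbp*, which encodes a Myc-binding protein, was lower as well (-0.54). Within the summed FPKM of the 3 Myc proto-oncogenes, *Myc* held 35.7% (33.1% to 37.4%) in EV and 43.3% (42.0% to 46.0%) in *Hdac3* KO MCECs. *Mycn* held 63.4% and 54.7%, and *Mycl* 0.924% and 2.01%. The ranges over libraries did not overlap for any of the 3.

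Ribosome biogenesis and growth genes known as Myc targets were higher throughout. Of 34 genes 32 are listed, all called higher (median log2 fold change 0.69), and 31 were called with library totals. Over all listed genes the share called higher was 47.1%. The highest were *Tfrc*, the transferrin receptor (1.33), and *Nop56*, a nucleolar protein (1.19). *Nop56* was at 4181 ± 67.7 normalized counts (SD, n = 4) in EV and 9515 ± 257 (SD, n = 4) in *Hdac3* KO MCECs. The lowest were *Hk2*, a hexokinase (0.16), and *Nme1* (0.28), a nucleotide kinase. Of 19 further genes of the Max network and of Myc turnover, 9 are listed, 6 higher and 3 lower, with a median of 0.24. *Aurka* (0.82) and *Skp2* (0.66), which act on Myc stability, were highest, and the helix-loop-helix factors *Tfeb* (-0.33) and *Usf2* (-0.30) were lowest. *Mga*, also of the Max network, was called higher (0.14).

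**Figure D4:**
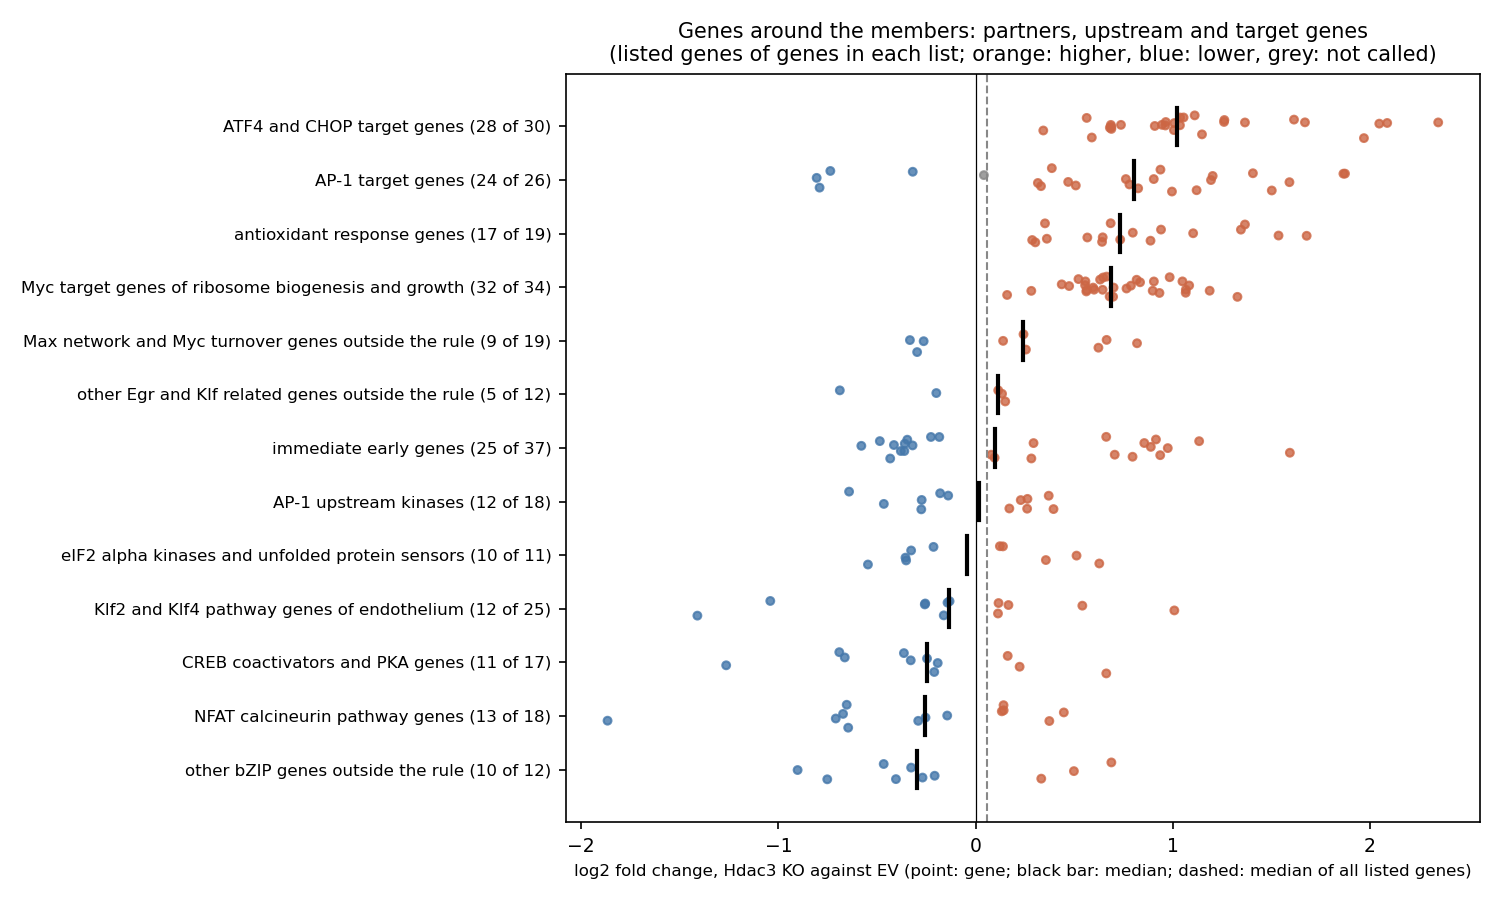
Log2 fold change in *Hdac3* KO against EV MCECs (x axis) of each listed gene of 13 lists of partners, upstream genes and targets (y axis, with the number listed of the number in the list), a black bar at each list's median and a dashed line at the median of all listed genes. The ATF4 and CHOP targets have a median of 1.02 and the AP-1 targets one of 0.80, while the NFAT and CREB lists have medians of -0.25.

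The remaining members were *Nfil3*, the NFAT genes and the Ier genes. *Nfil3*, a bZIP repressor known from the circadian clock and lymphocytes (ENSMUSG00000056749, chr13:52967209-52981073, - strand), was at 236, 259, 254 and 209 in EV and at 436, 415, 419.9 and 436 normalized counts in *Hdac3* KO MCECs. The groups did not overlap, and the log2 fold change was 0.84 (SE 0.07, adjusted p = 4.7e-13). *Nfat5*, the osmotic stress factor (ENSMUSG00000003847, chr8:107293470-107379517, + strand), was at 2324, 2525, 2216 and 2146 in EV and at 2505, 2845, 2451 and 2655 in *Hdac3* KO MCECs, with overlap between the groups and an exact permutation p of 0.0857. *Nfat5* had a log2 fold change of 0.19 (SE 0.042, adjusted p = 1.1e-04). *Nfatc3*, which calcineurin activates (ENSMUSG00000031902, chr8:106059603-106130537, + strand), was at 2548, 2673, 2612 and 2537 in EV and at 2933, 2889, 2658 and 2918 in *Hdac3* KO MCECs. *Hdac3* KO replicate 3 lay below EV replicate 2, and the other KO libraries were above all EV libraries. The fitted log2 difference was 0.14 (SE 0.032, adjusted p = 2.3e-04), and neither NFAT gene was called with library totals (0.07 and 0.02). Of 18 genes of the calcineurin pathway 13 are listed, 8 lower and 5 higher, with a median of -0.25. They ran from the anchor protein *Akap5* (-1.87) and the calcineurin regulator *Rcan2* (-0.71) to *Csnk1a1* (0.37) and the calcium sensor *Stim1* (0.45), and 2 were called higher with library totals. *Akap5* was at 626 ± 32.5 normalized counts (SD, n = 4) in EV and 172 ± 12 (SD, n = 4) in *Hdac3* KO MCECs.

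Ier genes are named for their fast induction. *Ier5* (ENSMUSG00000056708, chr1:155096361-155099636, - strand) was at 946, 873, 911 and 937 in EV and at 2450, 2343, 2292 and 2348 normalized counts in *Hdac3* KO MCECs. All KO libraries lay far above the EV ones, and the log2 fold change was 1.36 (SE 0.036, adjusted p = 6.2e-27). Its relative *Ier5l* went the other way (ENSMUSG00000089762, chr2:30471537-30474219, - strand). It was at 331, 429.8, 401 and 360.1 in EV and at 244, 233, 233 and 215 in *Hdac3* KO MCECs, without overlap, and its log2 fold change was -0.72 (SE 0.077, adjusted p = 2.2e-10). *Ier3*, a gene of cell survival under stress, was at 1202 ± 37.1 (SD, n = 4) in EV and 1879 ± 45.9 (SD, n = 4) in *Hdac3* KO MCECs (log2 fold change 0.65, SE 0.036, adjusted p = 6.1e-18).

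Per transcript length the members spanned a wide range of levels. *Atf4* was highest in both groups, followed by *Atf5* (103 FPKM) and *Cebpb* (73.4 FPKM) in EV MCECs and by *Ddit3* (102 FPKM), *Atf5* (101 FPKM) and *Cebpb* (100.1 FPKM) in *Hdac3* KO MCECs. The last 3 stood at 102 ± 3.21, 101 ± 2.96 and 100.1 ± 2.92 FPKM (SD, n = 4), which is within their spread. *Fosb* (0.162 FPKM), *Creb5* (0.246 FPKM) and *Bach2* (0.458 FPKM) were lowest in EV MCECs, and *Egr2* (0.0733 FPKM) was lowest in *Hdac3* KO MCECs. FPKM divides by the library total without TMM scaling, so *Atf5*, *Creb1* and *Junb* have slightly lower FPKM and slightly higher normalized counts in *Hdac3* KO MCECs. A mean below 100 normalized counts in the higher group was seen in 6 members, where counting error is larger.

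**Figure D5:**
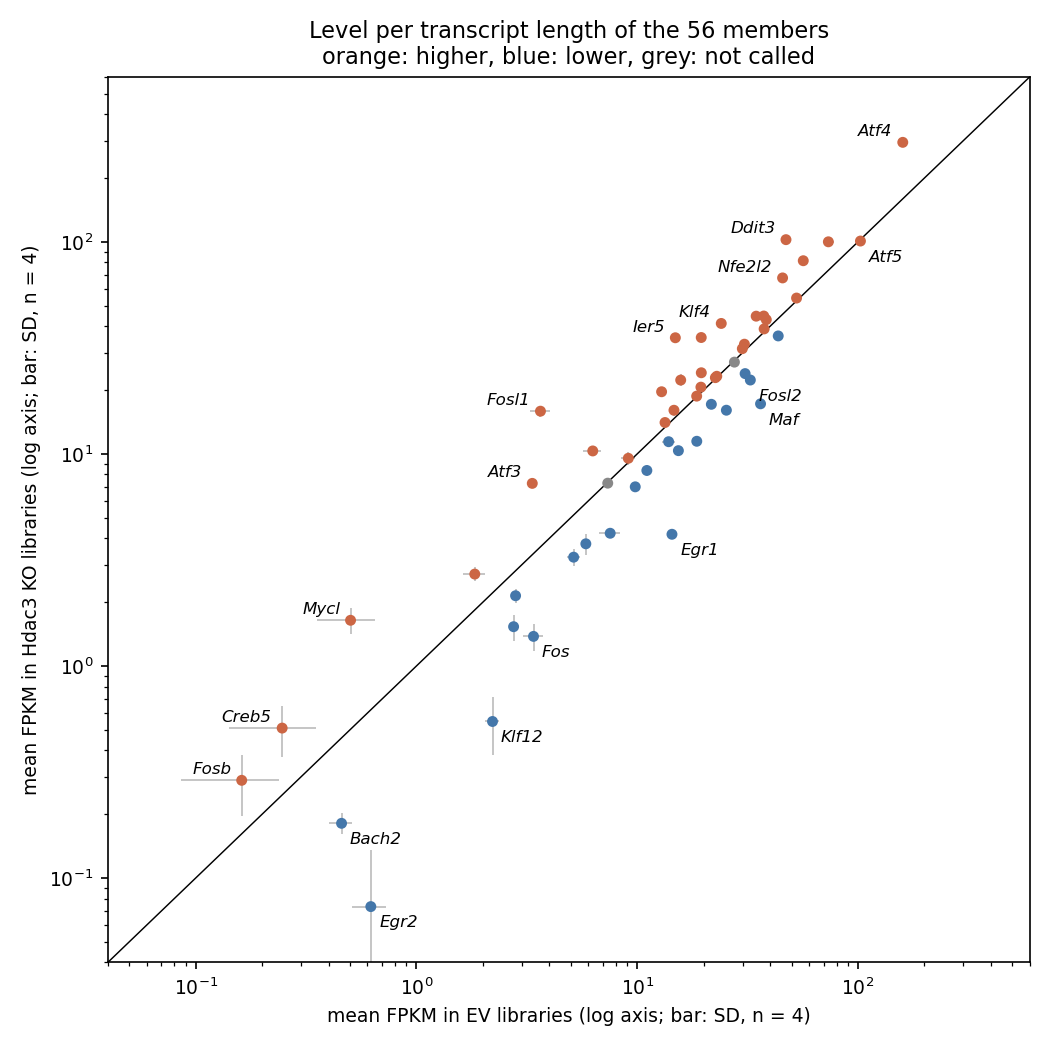
Mean FPKM of each of the 56 members in EV MCECs (x axis, log scale) and in *Hdac3* KO MCECs (y axis, log scale), with the SD over 4 libraries as bars and the line of equal level. *Atf4* is highest in both groups, *Fosl1*, *Atf3* and *Mycl* lie above the line, and *Egr1*, *Klf12* and *Egr2* lie below it.

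A few features of the genes were compared with the rest of the table. Members made of a single exon numbered 6 of 56 (10.7%, against 1.67% of listed protein-coding genes): *Jun*, *Jund*, *Cebpb*, *Mafa*, *Ier5* and *Ier5l*, of which 3 rose and 3 fell. The AU-rich nonamer TTATTTATT, known from unstable messages, was in the 3′ UTR of *Fos*, *Fosl2*, *Klf16*, *Maff* and *Mycbp* (8.93% of members, against 8.22% of 7922 listed genes with an annotated 3′ UTR). The median 3′ UTR length was 1326 bases in members and 1232 in listed genes. In 11 members more than 5% of exon bases overlap another gene, including *Maf* (5.34%), *Bach2* (5.40%), *Mxd4* (6.06%), *Mycbp* (7.09%), *Jun* (7.28%) and *Junb* (7.52%) on the opposite strand. Of the exon bases of *Cebpb*, 20.7% overlap *Tmem189*, whose log2 fold change was 0.34.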

How the data were processed

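Bulk RNA-Seq was analysed in MCECs, with 4 libraries from *Hdac3* KO cells and 4 from EV cells, grouped and numbered by sample title. The authors aligned reads to mm10 with tophat2 and bowtie2 and deposited raw counts per gene, without normalization. The submitters' processing notes also name CASAVA and DESeq 1.6.3. The program that counted reads and whether it used strand are not given in the sources used here. The authors also deposited FPKM values, which scale each count by gene length and library total. All 8278 listed genes have an adjusted p-value of the authors of at most 0.04999, and nothing else of the authors' own comparison (fold changes, p-values, group means) was used. The separate tables of higher and lower genes were not used.

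Library totals were recovered from count, length and FPKM and lay between 15775327 and 22255684 reads. The common coefficient of variation beyond counting noise was 2.82%. Without molecular identifiers, read numbers bound the counting error alone. Counts were tested with edgeR 4.0.16 (glmQLFit and glmQLFTest, limma 3.58.1, R 4.3.3) on totals multiplied by TMM factors, without filter or covariate, with Benjamini-Hochberg adjustment over all listed genes and calls at an adjusted p below 0.01. All 56 members pass a mean of 10 counts. Single genes also had a two-sided exact permutation test over 70 arrangements, whose smallest p is 0.0286.

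The members and lists were chosen with earlier results of these data known. Values in each library are given for members beyond an absolute log2 fold change of 1 and for the highest and lowest of each family, and the 2 highest and 2 lowest called genes are named for each list. No gene set test was run. Motifs were read in RefSeq promoter windows (GRCm38.p6), and overlaps, exons and 3′ UTRs in GENCODE M21.

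Same-numbered libraries did not deviate together (r = -0.107, 0.118, -0.0198 and -0.0748 over 7187 genes), so the replicate block was an alternative. The others were DESeq2 1.42.0, its size factors, library totals without TMM, TMM on listed genes, a 10-count filter, protein-coding genes only, adjustment over 30000 genes, thresholds of 0.05 and 0.001, and leaving out each library. The fits were tested on simulated data. Figures used matplotlib 3.10.9 in Python 3.11.15. The other data types of the study were not analysed here.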

Additional observations from a re-analysis of the deposited data

Results flagged for a closer look

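In 7 of 112 sets of 4 libraries, the highest or lowest normalized count of a member stood apart from the other 3 libraries of its group by more than Dixon's critical value at the 95% level, and chance alone gives about 5.6. In EV MCECs, *Creb5* was at 23.1 in replicate 4 against 10.7 to 11.5 in the others, and *Cebpg* was at 1170.0 in replicate 2 while the other 3 libraries rounded to 1110.0. In *Hdac3* KO MCECs, replicate 4 was low for *Atf6b* (1800.0 against 1900.0 to 1920.0) and high for *Bach2* (38.4 against 30.2 to 31.6). Replicate 3 of *Hdac3* KO MCECs was high for *Ddit3* (2120.0 against 1990.0 to 2000.0) and low for *Nfatc3* (2660.0 against 2890.0 to 2930.0). *Nfe2l2* was low in *Hdac3* KO replicate 2 (3260.0 against 3450.0 to 3470.0). Leaving out any of these libraries did not change the direction of its gene, and the cause was not tested.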

How the results depend on the processing

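Of the alternatives run, the scaling of the libraries moved the counts most. With library totals and no TMM factors, 21 members were called higher in place of 33, the count of lower members stayed at 21, and the log2 fold changes of *Atf5* (-0.025), *Creb1* (-0.014) and *Junb* (-0.026) changed sign without being called. Beyond a log2 fold change of 1, that scaling gave 6 lower and 5 higher members in place of 5 and 7. *Fosb* (adjusted p = 0.011) and *Max* (0.011) were among the 12 members that kept no call there. With adjustment over 30000 genes, *Atf5* (0.011) and *Fosb* (0.014) lost their calls. *Creb1* gained a call with DESeq2 size factors (0.0048), the 10-count filter (0.0071) and protein-coding genes only (0.0073), and also without EV replicate 2 (0.0043), *Hdac3* KO replicate 3 (0.0098) or *Hdac3* KO replicate 4 (0.0071). The log2 ratio of the summed FPKM, 0.0050 for the Fos and -0.03 for the Jun family, was 0.12 and 0.09 after division by the TMM factors, an alternative chosen after seeing the data. Leaving out single libraries gave 31 to 34 higher and 19 to 21 lower members, 5 to 9 higher and 5 lower beyond a log2 fold change of 1, and 140 to 142 higher and 59 to 60 lower genes over the pathway lists. The replicate block gave 33 higher and 21 lower members and changed no call of a member. The count of members is limited by the table, which holds only genes that differed in the authors' test, and 6 members with a mean below 100 counts are the least precise.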
